A study of Saccharomyces cerevisiae with 9 samples.

Results

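The genes described here encode the proteins of the large (60S) subunit of the yeast cytoplasmic ribosome, including its stalk. They were chosen by name: a gene was taken when its symbol on both array platforms was RPL followed by a number, or RPP followed by 0, 1 or 2, with or without the letter A or B. This found 68 of the 5189 genes on both platforms. One of them, RPP1 (YHR062C), encodes a subunit of the RNA-processing enzymes RNase P and RNase MRP and is no ribosomal protein, so the counts below are over the other 67. Of these, 57 carry an A or B letter and 10 do not, and both copies of 25 pairs were present. Another 7 lettered genes (RPL2B, RPL6B, RPL13A, RPL18B, RPL22A, RPL34B and RPL40B) had no partner among the genes used. RefSeq lists 82 symbols that match the naming rule, and the 14 that are not on both platforms were not analysed here.

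Messenger RNA was measured in Saccharomyces cerevisiae strain S288C, a laboratory strain, grown in rich medium (YPD) at 30 °C. From each culture of 600 ml in exponential phase, 400 ml was frozen at -80 °C with no cryoprotectant, kept for 1 week, thawed at 30 °C for 25 min and then incubated further. The 3 groups were cells sampled 15, 30 and 60 min after thawing was complete, each on 3 two-colour arrays that the series describes as independent biological samples. On every array Cy5 marked the recovering cells and Cy3 marked the control, 200 ml of culture taken before freezing, and the dyes were never exchanged. A value is therefore a log2 ratio of recovering over unfrozen cells, where -1 means halved mRNA relative to the other mRNAs of the cell. The tables do not state the direction, which was read from the labels. The labels do not say how many cells survived the freeze, and a lower level in living cells and a share of dead cells that kept or lost RNA cannot be told apart in these ratios.

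A yeast ribosome needs 1 copy of most large-subunit proteins, and the genes for them are among the most strongly transcribed in growing cells. They are known to be switched on and off together with nutrient and stress signals. Most of these proteins coat and brace the ribosomal RNA. The stalk is a flexible arm in which RPP0 anchors the small acidic proteins RPP1A, RPP1B, RPP2A and RPP2B, and it is the place where translation factors that use GTP first touch the ribosome. An old genome duplication left many of these proteins with an A and a B gene, whose products are the same or nearly so. The coding sequences of such copies are very alike and probe sequences were not used here, so how well a spot told one copy from the other is uncertain.

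One property of the arrays has to be stated before the results. The spot numbers of both platforms break down into a complete grid of 4 rows and 8 columns of blocks, 32 in all, each with 14 rows and 14 columns of spots. That these digits give the position on the slide is not stated in the tables. The log2 ratios of all spots depended on them: the block accounted for between 8.34% and 56.8% of the variance of an array. At 60 min the median of all spots went from -0.58, -0.33 and -0.60 in column 1 (replicates 1, 2 and 3) to 0.58, 1.43 and 0.39 in column 8. At 15 and 30 min the 3 arrays of a time differed in how the ratios ran across the grid. Each result below is therefore given in 2 forms, with the values as deposited and with each array centred on the median of each of its 32 blocks ("block-centred"). Centring was chosen after the data were seen. It would also take away any change shared by the genes that happen to lie in a block. With it the correlation between replicate arrays across all genes went from 0.15-0.30 to 0.32-0.53 at 15 min, from 0.35-0.56 to 0.51-0.66 at 30 min, and from 0.60-0.66 to 0.52-0.72 at 60 min. Among the 60S genes alone it went from between -0.07 and 0.15 to 0.02-0.38 at 15 min and from 0.19-0.24 to 0.30-0.35 at 30 min, but down from 0.39-0.63 to 0.21-0.38 at 60 min. RPL30 has spots in 2 blocks that hold the same values, and its block-centred value averages over both positions.

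**Figure D1:**
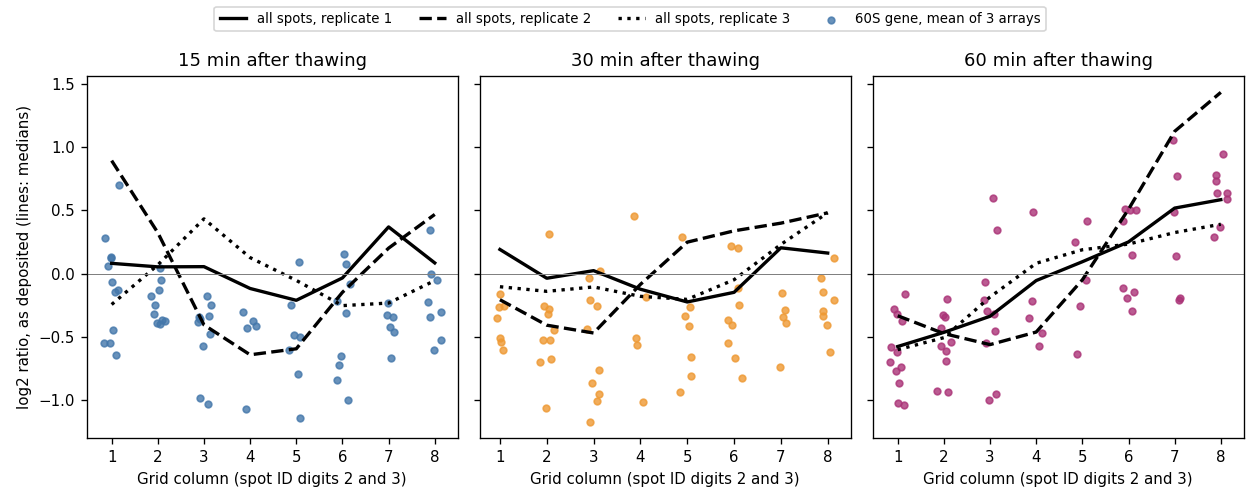
Log2 ratio as deposited (y axis) against the grid column of the spot (x axis, 1 to 8) at 15, 30 and 60 min after thawing. Lines are medians of all spots on each array and points are 60S genes (mean of 3 arrays); at 60 min the points climb with the lines, from a median of -0.66 in column 1 to 0.63 in column 8.

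All 67 genes had 3 values at 15 min, 61 did at 30 min and 65 at 60 min, and only genes with 3 values at a time were tested. RPL16A, RPL20B, RPL23A, RPL28 and RPL38 had no value on replicate 3 at 30 min, and RPL7B had none on replicate 1. At 60 min RPL17B lacked replicate 1 and RPL31A replicate 3. RPP1 had too few values to test at any time: it read -0.35 on 1 array at 15 min, -0.42 and 0.35 on 2 arrays at 30 min, and -0.01 on 1 array at 60 min. Tests were made with limma across all genes, and a gene passed at a Benjamini-Hochberg adjusted p under 0.05. Errors written with ± are limma standard errors over 3 arrays per time unless said otherwise, and the small number of arrays limits their precision.

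At 15 min the 60S genes lay below the level before freezing in most cases, but by little. Their median log2 ratio was -0.35 as deposited and -0.32 block-centred, against -0.05 and -0.03 over the 2148 genes tested. Of the 67 genes, 57 had a mean below 0 (85.1%, against 54.7% of all genes tested), and the medians of the 3 arrays were -0.47, -0.34 and -0.33. On all 3 arrays 21 genes lay below 0, which 20.8% of all genes tested did, and RPL28, RPL38 and RPL8B lay above 0, which 15.1% did. On replicate 3 RPL28, RPL38 and RPL8B read only 0.0084, 0.0079 and 0.0105, close to a value that other 60S genes shared on that array. Block-centred, 32 of the 60S genes lay below 0 on all 3 arrays, against 24.6% of all genes. No 60S gene passed as deposited, where 1.16% of all genes did, although 12 were lower and 1 higher at an unadjusted p under 0.05, as were 205 and 170 of the 2148 genes tested.

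The 4 lowest means at 15 min belonged to both copies of RPL31, a protein near the mouth of the tunnel through which new protein leaves, and to RPL32 and RPL33A. RPL31A (YDL075W) read -1.07, -1.75 and -0.58 on replicates 1, 2 and 3, a mean of -1.14 ± 0.30 (adjusted p = 0.0513). RPL31B (YLR406C) read -0.94, -1.62 and -0.53, a mean of -1.03 ± 0.30 (adjusted p = 0.0791). All 6 of these values lay below 0. Block-centred, RPL31B stood at -1.04 ± 0.25 and passed (adjusted p = 0.0407), 2.06-fold below the level before freezing, while RPL31A stood at -0.78 ± 0.21 (adjusted p = 0.0600). The other gene that passed block-centred was RPL6B (YLR448W), which encodes one copy of a protein that binds early in subunit assembly. It read -1.61, -1.37 and 0.03 as deposited and -1.19, -1.05 and -0.44 block-centred, so replicate 3 lay nearest to 0 in both forms. Its block-centred mean of -0.89 ± 0.21 had an adjusted p of 0.0330, and 0.885% of all genes passed as lower in that fit. Neither call held when any 1 replicate was left out. Means of RPL32 and RPL33A were -1.07 ± 0.30 and -0.998 ± 0.29 as deposited and -0.69 ± 0.20 and -0.62 ± 0.23 block-centred, with adjusted p from 0.0695 to 0.141.

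The highest mean at 15 min was that of RPL28, the protein whose mutation makes yeast resistant to cycloheximide. Its values were 0.50, 1.59 and 0.01, a mean of 0.70 ± 0.31 (adjusted p = 0.237), so the position above 0 rested mainly on 1 array. RPL28 lies in column 1, where the median of all spots on that array was 0.89, and block-centred it stood at 0.35 ± 0.19. RPL8B, RPL38 and RPL23B followed with 0.34, 0.28 and 0.15 as deposited, and with 0.21, -0.07 and -0.05 block-centred.

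**Figure D2:**
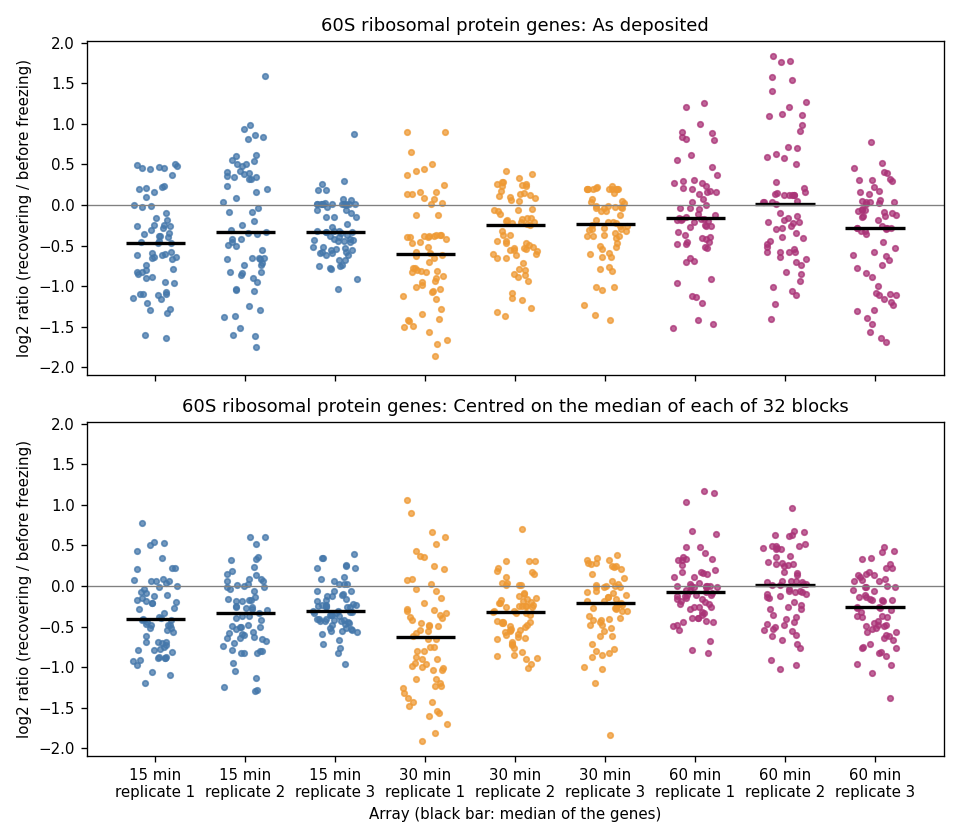
Log2 ratios (y axis) of the 60S genes on each of the 9 arrays (x axis), as deposited and after centring on block medians; each point is 1 gene and the black bar the median of the genes. The bars lie below 0 on every array but replicate 2 at 60 min, at 0.01 in both panels, and the points lie closer together at 60 min after centring.

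At 30 min the 60S genes again lay low. The median was -0.37 as deposited and -0.44 block-centred, against -0.08 and -0.03 over the 3320 genes tested, and 54 of 61 genes had a mean below 0 in both (88.5%, against 57.4% of all genes as deposited). Array medians were -0.61, -0.25 and -0.23, replicate 1 being the lowest. On all 3 arrays 28 of 61 genes lay below 0 as deposited and 34 block-centred, against 25.5% and 27.2% of all genes. As deposited 3 genes passed, all lower, where 2.05% of all genes passed as lower and 4.34% in either direction. They were RPL6B, RPL17A, another protein at the tunnel mouth, and RPL27B. Block-centred, 13 genes passed, all lower and these 3 among them, where 5.84% of all genes passed as lower. As a share this is 21.3% of the 60S genes tested against 10.4% of all genes in either direction.

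RPL6B read -0.78, -1.37 and -1.36 at 30 min, a mean of -1.17 ± 0.31 (adjusted p = 0.0290), or 2.25-fold below the level before freezing. RPL17A (YKL180W) read -0.98, -1.15 and -1.05, a mean of -1.06 ± 0.28 (adjusted p = 0.0245). RPL27B (YDR471W) read -1.06, -1.17 and -0.82 (adjusted p = 0.0366). All 9 values lay well below 0 and the arrays of each gene lay close together. Block-centred their means were -0.90, -0.81 and -0.82, and all 3 passed. As deposited the count of 3 became 0, 0 and 1 without replicate 1, 2 or 3, and none of these 3 genes passed with a replicate left out.

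The 10 genes that passed at 30 min only after centring were named after their values were seen. RPL13A (YDL082W) had the lowest block-centred mean, -1.22 ± 0.24 (adjusted p = 0.00692), from -1.91, -0.71 and -1.03; as deposited it read -1.34, -0.22 and -0.64. RPL8A followed at -1.04, RPL21A at -0.97, RPL25 at -0.88, RPL31B at -0.86, RPL23B and RPL39 at -0.80, RPL35B at -0.73, RPP2A at -0.71 and RPL42A at -0.70. RPL25 is a docking site at the tunnel exit for factors that meet the emerging chain, RPL39 is a small protein that lines the tunnel, and RPL42A lies where the spent transfer RNA leaves. Replicate 1 carried much of this group: without it no 60S gene passed at 30 min in either form, while 4 passed block-centred without replicate 2 and 4 without replicate 3. RPL31B read -1.81, -0.50 and -0.27 block-centred, and RPL23B read -1.60, 0.01 and -0.82. In both the first array lay far below the other 2.

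The highest means at 30 min were those of RPL10 (0.45), RPL1A (0.32), RPL9A (0.29) and RPL4B (0.22), none of which passed. RPL10 is one of the last proteins to join the subunit and makes it ready for translation, and RPL1A forms the arm of the subunit opposite the stalk. RPL10 read 0.89, 0.26 and 0.20 and RPL1A read 0.50, 0.25 and 0.20, above 0 on all 3 arrays. On replicate 3 both values lay in the window of 0.01 that held the most large-subunit genes, 10 of 62 (16.1%). That window held 1.47% of the other genes. The position above 0 on that array therefore rests on a value shared with other genes. Block-centred, the means of RPL10 and RPL1A were 0.52 ± 0.21 (adjusted p = 0.126) and 0.54 ± 0.21 (adjusted p = 0.121).

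**Figure D3:**
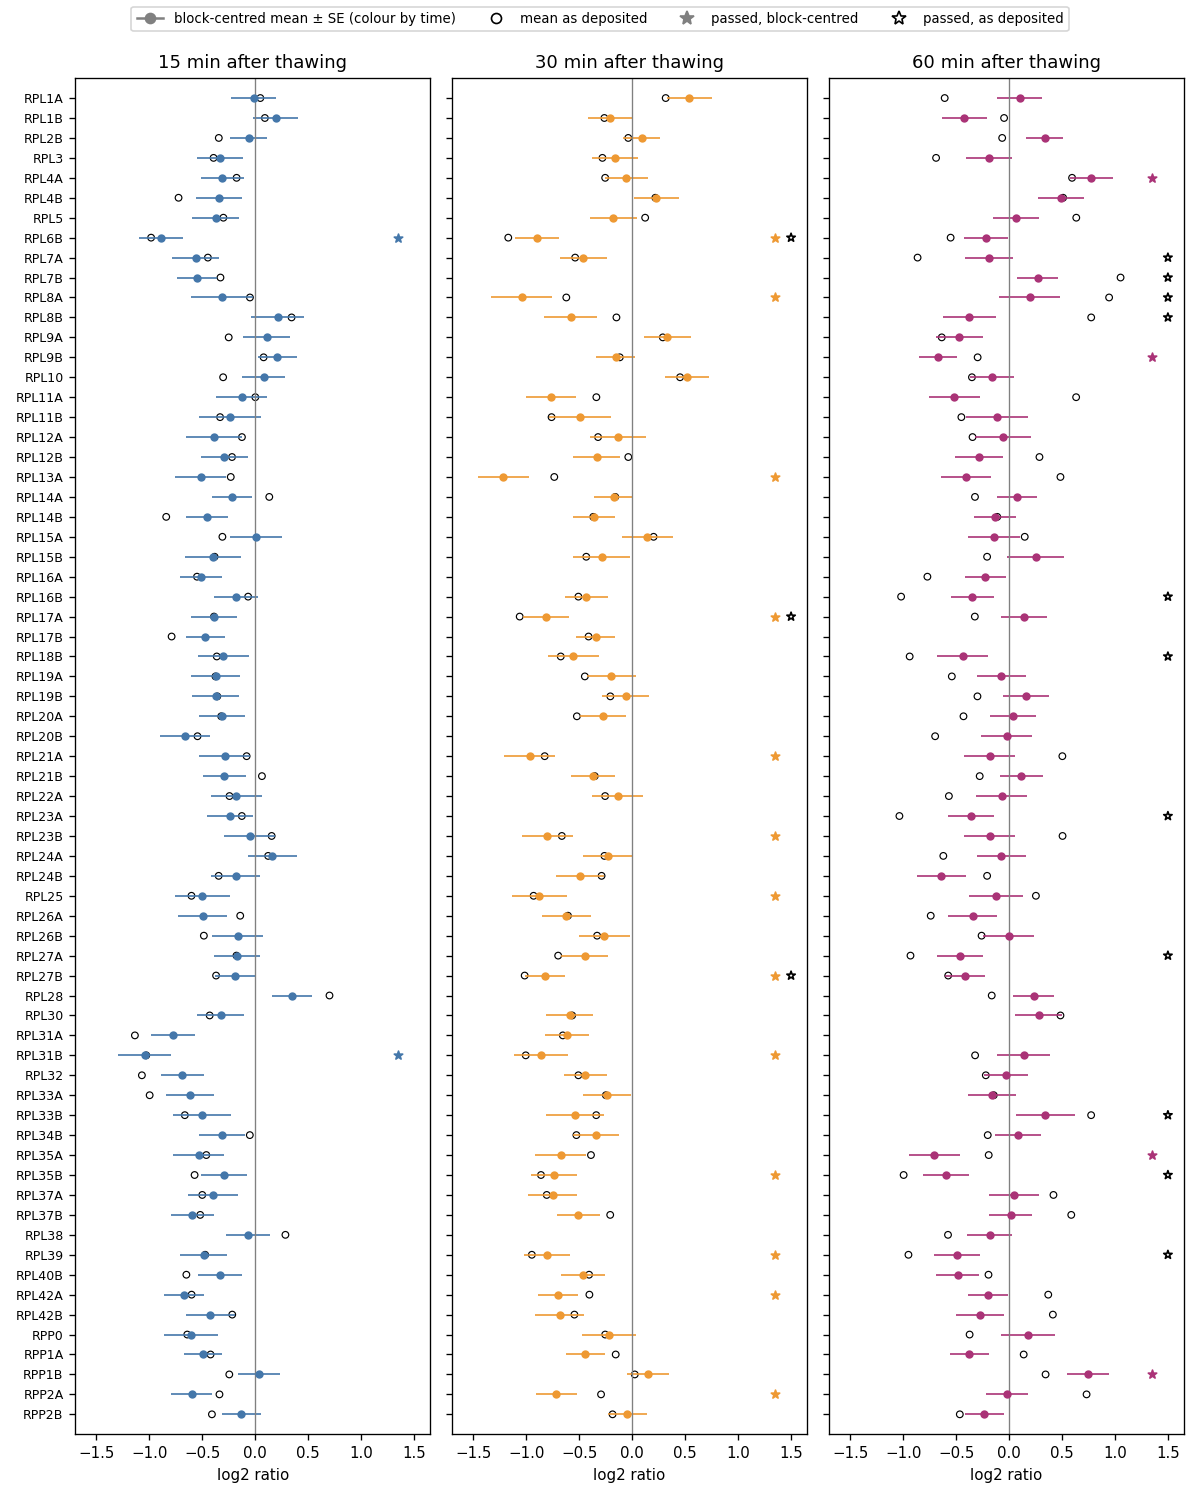
Mean log2 ratio (x axis) of each 60S gene with 3 values (y axis) at 15, 30 and 60 min after thawing. Filled points are block-centred means ± limma SE, open circles the means as deposited, and stars at the right mark genes that passed (13 block-centred and 3 as deposited at 30 min); at 60 min open and filled points lie far apart for many genes.

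At 60 min the deposited values put 60S genes on both sides of the unfrozen level. The median was -0.22 as deposited and -0.13 block-centred, against -0.06 in both forms over the 2952 genes tested. As deposited 23 of 65 genes lay below 0 on all 3 arrays and 13 above it, against 32.6% and 26.8% of all genes, and block-centred 21 lay below, against 30.3%. As deposited 7 genes passed as lower and 4 as higher, 16.9% of the 65 tested, where 17.5% of all genes passed as lower, 15.6% as higher and 33.2% in all. The lower ones were RPL23A, RPL16B, RPL35B, RPL39, RPL18B, RPL27A and RPL7A, and the higher ones RPL7B, RPL8A, RPL8B and RPL33B. All 7 lower genes lie in grid columns 1 to 3 and all 4 higher genes in columns 7 and 8. The balance of the 2 directions turned with single arrays: 1 gene was lower and 1 higher without replicate 1, 9 were lower and 0 higher without replicate 2, and 1 was lower and 5 higher without replicate 3. Across the 65 genes the mean correlated with the median of the gene's block at r = 0.83, as a description over genes that share the same arrays. This r was 0.62 over 67 genes at 15 min and 0.20 over 61 genes at 30 min.

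RPL7B (YPL198W), which encodes a protein that binds early in assembly, was the highest at 60 min with 0.61, 1.77 and 0.78, a mean of 1.05 ± 0.29 (adjusted p = 0.00697). Its copy RPL7A (YGL076C) was among the lowest with -1.42, -0.17 and -1.003, a mean of -0.86 ± 0.33 (adjusted p = 0.0446). The 2 copies did not overlap. Block-centred they stood at 0.27 ± 0.19 and -0.19 ± 0.22, and neither passed. RPL16B (YNL069C) read -1.14, -0.83 and -1.09, a mean of -1.02 ± 0.28 (adjusted p = 0.00741), and stood at -0.34 ± 0.21 block-centred. RPL23A, a protein on the face that meets the small subunit, read -1.47, -0.40 and -1.23 (adjusted p = 0.0131) and stood at -0.36 ± 0.22 block-centred. The other 3 higher genes, RPL8A (0.94 ± 0.35), RPL8B (0.78 ± 0.30) and RPL33B (0.78 ± 0.30), came to 0.19, -0.37 and 0.34 block-centred. RPL35B, RPL39, RPL18B and RPL27A, at -0.995, -0.95, -0.94 and -0.93 as deposited, came to -0.60, -0.49, -0.44 and -0.47.

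None of the 11 genes passed block-centred. In that form 4 other genes passed at 60 min, 2 in each direction, where 14.1% of all genes passed as lower, 10.8% as higher and 24.9% in all. They were named after their values were seen. RPL4A (YBR031W), whose long loop reaches into the tunnel, was higher by 0.78 ± 0.20 (adjusted p = 0.0117), from 1.17, 0.68 and 0.48. The stalk gene RPP1B (YDL130W) was higher by 0.74 ± 0.20 (adjusted p = 0.0123), from 1.14, 0.67 and 0.43. Both lie in column 3, and as deposited they read 1.25, 0.13 and 0.41 and 0.80, 0.20 and 0.03, above 0 on every array but with means of 0.60 and 0.34 that did not pass. RPL9B, a protein beside the factor-binding site, had a block-centred mean of -0.67 ± 0.18 (adjusted p = 0.0140) from -0.43, -0.97 and -0.61. RPL35A had -0.70 ± 0.24 (adjusted p = 0.0444) from -0.67, -0.06 and -1.39, with its 3 arrays far apart. Without replicate 1, 2 or 3 the count of 4 became 1, 4 and 4. RPL4A and RPP1B lost the call without replicate 1, RPL9B without replicate 2 and RPL35A without replicate 1 or 3. Of all genes, 979 passed at 60 min as deposited and 736 block-centred, with 487 in both (49.7% and 66.2% of the lists).

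The 10 genes with no A or B copy have no duplicate to share the load. At 60 min RPL39 was the only one of them to pass, and only as deposited. RPL3, which lies closest to the centre where peptide bonds form, read -0.17, -0.26 and -1.64, a mean of -0.69 ± 0.32 that rested on the third array. RPL5, which brings the smallest ribosomal RNA of the subunit into the particle, read 0.89, 1.11 and -0.09, a mean of 0.63 ± 0.30 (adjusted p = 0.0988). RPL38 stood at -0.58, RPP0 at -0.37, RPL10 at -0.35, RPL32 at -0.22, RPL28 at -0.16, RPL25 at 0.25 and RPL30, which is known for blocking the splicing of its own transcript, at 0.49. Block-centred, RPL3, RPL5 and RPL38 came to -0.19, 0.07 and -0.18. The remaining 7, RPL39 included, lay between -0.49 and 0.28.

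The 5 stalk genes did not all lie on the same side of the unfrozen level. RPP0 (YLR340W), the anchor, read -1.34, -0.35 and -0.24 at 15 min. At 30 min it read -0.81, -0.16 and 0.20, and at 60 min -0.53, 0.05 and -0.63. None of its means passed, and at 60 min its block-centred values of 0.15, 0.16 and 0.22 lay close together just above 0 (mean 0.18 ± 0.25). RPP1A (YDL081C) read -0.47, -0.35 and -0.45 at 15 min. Later it read -0.40, -0.06 and -0.01 (30 min) and -0.11, 0.72 and -0.19 (60 min). Block-centred, every one of its 9 values was below 0, with means of -0.49, -0.44 and -0.37 (each ± 0.18) that did not pass. RPP1B read -0.96, -0.66 and 0.88 at 15 min with replicate 3 far above the others, then 0.25, -0.21 and 0.03 at 30 min, and had block-centred means of 0.04, 0.15 and 0.74 at the 3 times. RPP2A (YOL039W) had means of -0.34, -0.29 and 0.73 as deposited and of -0.60, -0.71 and -0.02 block-centred, and passed only block-centred at 30 min (± 0.20, adjusted p = 0.0342). RPP2B (YDR382W) had means of -0.41, -0.19 and -0.46 as deposited and of -0.13, -0.05 and -0.23 block-centred, and passed at no time. RPP2A lies in column 8 and RPP2B in column 4.

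**Figure D4:**
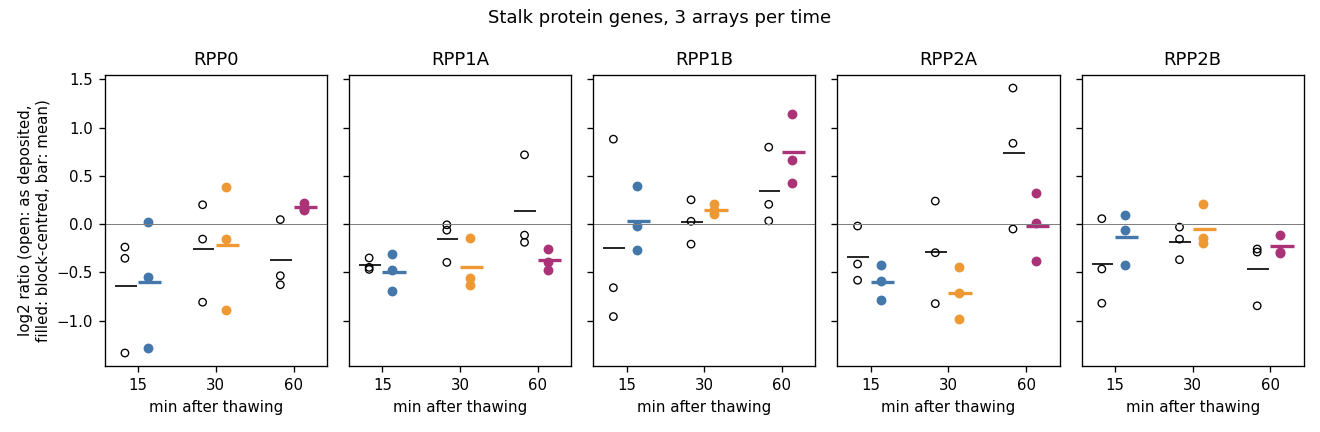
Log2 ratios (y axis) of the 5 stalk genes at 15, 30 and 60 min after thawing (x axis), 3 arrays per time; open circles are values as deposited, filled points block-centred values and bars their means. The block-centred values of RPP1A lie below 0 at all times, and those of RPP1B lie above 0 on all arrays at 30 and 60 min.

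The A and B copies were compared within each array, in 1 fit over all gene pairs of the tables with an A and a B name. At 60 min 4 of 23 tested 60S pairs differed as deposited, where 20.9% of the 43 pairs tested did. A minus B was -1.92 ± 0.40 for RPL7 (adjusted p = 3.42e-04), -1.54 ± 0.40 for RPL23 (adjusted p = 0.00276), 1.20 ± 0.40 for RPP2 (adjusted p = 0.0297) and 1.08 ± 0.39 for RPL11, the partner of RPL5 (adjusted p = 0.0388). The copies of these pairs lie in columns 1 and 7, 1 and 6, 8 and 4, and 8 and 3. Without replicate 1, 2 or 3 the count of 4 became 1, 2 and 4: RPL7 passed each time, and RPL11 and RPP2 only without replicate 3. Over the 23 pairs the difference correlated with the difference between the medians of the blocks at r = 0.87, as a description, and block-centred at r = -0.40. Over all 9 arrays the r of 19 pairs went from 0.69 to -0.67, so the centred differences still ran with position, with the sign turned. RPL33 (-0.92) and RPL35 (0.80) came next in size and did not pass. The smallest differences were -0.04 for RPL42, 0.08 for RPL4, -0.17 for RPL37 and 0.17 for RPL8, whose copies both lie in column 8.

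Block-centred, those 4 differences were smaller than their errors allowed to call. RPL7 came to -0.46 (95% interval -1.05 to 0.14), RPL23 to -0.18 (-0.76 to 0.40), RPP2 to 0.21 (-0.37 to 0.79) and RPL11, with its sign turned, to -0.40 (-0.996 to 0.19). These intervals still hold sizable differences, so they do not show that the copies moved alike. The 1 60S pair that passed was RPP1A and RPP1B, with A minus B of -1.12 ± 0.29 (-1.69 to -0.55, adjusted p = 0.00527), where 4.65% of all pairs passed (this pair and COX5). On the 3 arrays this difference was -1.53, -0.92 and -0.91, and as deposited it was -0.91, 0.51 and -0.22 (mean -0.21). The medians of the blocks of RPP1A and RPP1B at 60 min were 0.51 and -0.40, and the call was made only after these were taken off. Without replicate 1 the block-centred difference was -0.91 and its adjusted p 0.146.

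**Figure D5:**
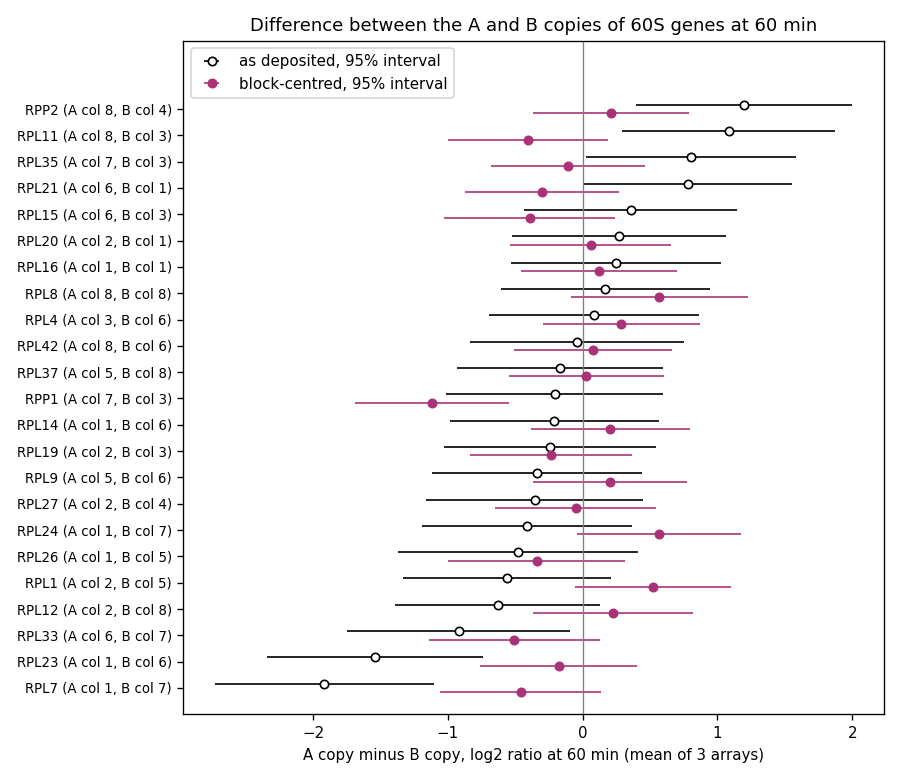
Difference between the A and the B copy (x axis, log2 ratio at 60 min, mean of 3 arrays with 95% interval) for each tested 60S pair (y axis, with the grid columns of both copies). Open circles are as deposited and filled points block-centred; the widest deposited difference, RPL7 at -1.92, shrinks to -0.46, and RPP1 (RPP1A minus RPP1B) is the 1 filled point whose interval lies wholly below 0.

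Over all 9 arrays 19 60S pairs could be tested. As deposited none passed, where 8.11% of all pairs did, and 2 had an unadjusted p under 0.05. The largest differences were 0.61 ± 0.23 for RPL11 (adjusted p = 0.0596), 0.46 for RPL35, -0.39 for RPL33, 0.39 for RPP2, 0.35 for RPL15 and 0.32 for RPL14, and the smallest were 0.05 for RPL4 and RPL27, 0.03 for RPL24 and -0.01 for RPL1. Block-centred RPP1A minus RPP1B was -0.75 ± 0.16 (-1.08 to -0.42, adjusted p = 5.8e-04), the 1 60S pair that passed, where 8.11% of all pairs did. RPP1A lay below RPP1B on 9 of 9 arrays block-centred and on 5 of 9 as deposited. A difference of 1 sign on all 9 arrays was seen in 5.41% of the pairs with 9 values block-centred (this pair and COX5). The call held without each replicate in turn, with adjusted p from 0.00710 to 0.0313. As deposited RPP1A minus RPP1B over the 9 arrays was -0.19 ± 0.23 (adjusted p = 0.662). RPP1A lies in column 7 and RPP1B in column 3. Across the 19 pairs the block-centred differences ran against those of the block medians at r = -0.67. The part of position in the call for this pair was not tested. At 15 and 30 min no 60S pair passed, where 2.22% and 0% of all pairs did. The median size of A minus B was 0.22, 0.35 and 0.36 at the 3 times as deposited and 0.21, 0.30 and 0.23 block-centred, against a median standard error of 0.39 and 0.29. Across pairs the A and B values correlated at 0.43, 0.29 and 0.20 as deposited and at 0.49, 0.39 and 0.30 block-centred, given as a description over 25, 21 and 23 pairs.

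Between times little could be called. From 15 to 30 min no 60S gene passed, nor did any other gene of the 1853 tested (0%), in either form. As deposited 1 60S gene was higher and 0 lower at an unadjusted p under 0.05, as were 28 and 24 of all genes. Block-centred 0 were higher and 3 lower, as were 28 and 57 of all genes. From 15 to 60 min RPL33B and RPL7B were higher, by 1.44 ± 0.42 (adjusted p = 0.0422) and 1.38 ± 0.41 (adjusted p = 0.0434), where 2.41% of all genes passed as higher and 5.77% in either direction. Block-centred they came to 0.85 ± 0.39 (adjusted p = 0.249) and 0.82 ± 0.27 (adjusted p = 0.113), with no 60S gene passed and 2.19% of all genes. From 30 to 60 min no 60S gene passed (0.0407% of all genes did), and 12 of 59 were higher and 3 lower at an unadjusted p under 0.05, as were 137 and 131 of the 2457 genes tested. The median difference of 60 against 30 min was 0.22 as deposited and 0.26 block-centred, against -0.01 and -0.05 over all genes tested, and 37.3% and 20.3% of the 60S genes tested lay lower at 60 than at 30 min, against 51.2% and 55.4% of all genes. These comparisons use the same arrays as those above.

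The genes of the small (40S) subunit had medians near those of the large one. They were -0.30, -0.46 and -0.13 at 15, 30 and 60 min as deposited and -0.31, -0.39 and -0.03 block-centred. At 30 min 1 of 48 passed as lower as deposited (RPS7A, -1.06) and 9 block-centred (RPS10A at -1.44 and RPS15 at -0.99 with the lowest means), where 2.05% and 5.84% of all genes passed as lower, and none higher. At 60 min 3 of 50 were lower and 4 higher as deposited, where 17.5% and 15.6% of all genes were. RPS15 (1.34), RPS0B (1.30) and RPS4B (1.16) had the highest means and RPS18A (-1.09) the lowest. Block-centred only RPS18A passed (-0.63), where 14.1% of all genes passed as lower. At 15 min RPS6A passed as deposited (-1.25) and RPS15 block-centred (-1.02). This was 2% of the 50 tested in each form, where 1.16% and 2.89% of all genes passed in either direction. Genes for the large subunit of the mitochondrial ribosome had medians of -0.11, -0.05 and 0.00 as deposited and -0.07, -0.03 and 0.02 block-centred. Of 26 tested at 60 min, 3 passed as higher as deposited, where 15.6% of all genes did: MRPL51, MRPL6 and MRPL36 (1.85, 1.46 and 0.81). Only MRPL51 also passed block-centred (0.70), where 10.8% of all genes passed as higher. At 15 min MRPL51 passed block-centred (0.89, adjusted p = 0.0202), where 2.89% of all genes passed in either direction.

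Genes for chaperones of ribosomal proteins and for late 60S maturation had lower medians at 60 min than the ribosomal protein genes, as a description with no test of the lists. Of the 10 dedicated chaperones, which hold single ribosomal proteins until they are built in, 5 passed as lower at 60 min as deposited and 6 block-centred, where 17.5% and 14.1% of all genes did. The medians were -0.49 and -0.71. The list is not limited to the large subunit: TSR2, which passed in both forms, and YAR1, which passed block-centred only, serve 40S proteins. BCP1, the carrier of the RPL23 product, fell by 2.23 ± 0.30 as deposited and by 1.76 ± 0.21 block-centred. RPL23A and RPL23B themselves stood at -1.035 and 0.51 as deposited, where RPL23A passed as lower, and at -0.36 and -0.18 block-centred. PUF6 fell by 1.89, LOC1 by 1.47 and TSR2 by 1.21, and each also passed block-centred. At 30 min 1 chaperone gene passed as lower as deposited (PUF6, -1.24) and 4 block-centred, where 2.05% and 5.84% of all genes did, and at 15 min none did.

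Of the genes for late 60S maturation and loading of the stalk, 7 of 11 tested passed as lower at 60 min as deposited and 6 block-centred, with medians of -0.93 and -0.86, where 17.5% and 14.1% of all genes passed as lower. MRT4, which holds the place of RPP0 in the unfinished subunit, fell by 1.98 ± 0.30 as deposited and by 1.30 ± 0.21 block-centred, while RPP0 stood at -0.37 and 0.18. YVH1, which is needed to release MRT4, fell by 0.74 and 1.11 in the 2 forms, and RLP24, NMD3 and REI1 fell by 1.31, 1.24 and 1.56 as deposited and also passed block-centred. At 15 min MRT4 passed block-centred only (-0.87, adjusted p = 0.0455), where 0.885% of all genes passed as lower. At 30 min NMD3 and RLP24 were lower in both forms (-1.23 each as deposited) and YVH1 block-centred only. These were 2 and 3 of 14 tested, where 2.05% and 5.84% of all genes passed as lower. Of 12 tested genes for factors that meet the stalk, 3 passed as lower at 60 min in each form (25%, against the same 17.5% and 14.1%): HEF3, FUN12 and GCN20 as deposited (-1.09, -1.03 and -0.81), and FUN12, GCN20 and SUP45 block-centred (-1.05, -0.80 and -0.62). None of the regulators of ribosomal protein genes that were tested (8 at 15 min, 12 at 30 min and 9 at 60 min) passed in either form. Of all genes, 1.16%, 4.34% and 33.2% passed at these times as deposited and 2.89%, 10.4% and 24.9% block-centred. With so few regulators tested, none passing at 15 or 30 min says little about them.

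On some arrays many 60S genes carried nearly the same value. On each array the window of 0.01 was placed where it held the most 60S genes. This choice favours a larger share than among the other genes. On replicate 1 at 15 min the window held only 4 60S genes, and the shares were still 5.97% and 0.828%. On replicate 3 at 15 min 11 of 67 (16.4%) lay within 0.01 of each other at about 0.01, against 1.51% of the other genes, among them RPL10, RPL11A, RPL11B, RPL28, RPL38 and RPL8B. On replicate 3 at 30 min 10 of 62 (16.1%) lay within 0.01 of each other at about 0.20, against 1.47% of the others, and on replicates 2 and 3 at 60 min 6 genes each lay this close together. At 60 min RPL4A was among them on replicate 2 and RPL9B on replicate 3, so their block-centred calls rest in part on such values. The brightness of the spots could not be examined, since the tables used here hold no intensities, and the part of this in the results was not tested beyond setting these values to missing. With them missing, 0, 3 and 10 genes passed at 15, 30 and 60 min as deposited. The block-centred form was not fitted with them missing.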

How the data were processed

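Per the labels, dye was built into complementary DNA made from poly(A) RNA, and the authors applied LOWESS normalization using spots of flag value 0. The deposited values are log2 ratios, and their lowest value is the log2 of 0.01. The sources used here name no scanner, background correction or genome build. Replicate 1 of each time was on a first platform and replicates 2 and 3 on a second, with 6272 spots each. Spots of 1 gene were averaged, and 5189 genes on both platforms were used. Names were matched to RefSeq R64.

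The fit held all 9 arrays and estimated the mean of each time (limma 3.58.1, R 4.3.3). Each time was tested against 0 and against the other times, two-sided, with Benjamini-Hochberg adjustment over all genes tested; pairs were tested on A minus B per array in 1 fit over all pairs. The script was tested on simulated data. Whether arrays shared a control culture is not stated; where they did, the p-values leave out the spread between controls. Genes named were those that passed, the 4 highest and lowest per time, the stalk, genes without a copy at 60 min, and the pairs with the largest and smallest differences. Members and lists were chosen with earlier results of these data known, and block centring and the near-identical values were taken up after seeing the data. Alternatives were other scalings, filters, platform and replicate terms, and arrays left out.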

Additional observations from a re-analysis of the deposited data

Results flagged for a closer look

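RPL33B and RPL7B stood out because their deposited values differed between times under a test of the difference itself. RPL33B was 1.44 log2 units higher at 60 than at 15 min (limma adjusted p = 0.0422), from -0.61, -0.65 and -0.74 to 0.28, 1.54 and 0.51 on replicates 1, 2 and 3, with no overlap. RPL7B was 1.38 higher (adjusted p = 0.0434), from -0.02, -0.42 and -0.55 to 0.61, 1.77 and 0.78. Both genes lie in grid column 7, where the medians of all spots at 60 min were 0.52, 1.12 and 0.32. Block-centred the differences were 0.85 and 0.82, with adjusted p of 0.249 and 0.113. Neither call held when any 1 replicate was left out, and the estimates then ran from 1.07 to 1.72 for RPL33B and from 0.98 to 1.76 for RPL7B.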

How the results depend on the processing

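Counts of 60S genes that passed at 15, 30 and 60 min were 0, 3 and 11 as deposited. They were 2, 7 and 4 with each array set to 1 median absolute deviation, 1, 7 and 7 when each time was fitted on its own arrays, 0, 0 and 2 on the second platform alone, 0, 3 and 6 with arrays centred on their median, 0, 14 and 9 with array weights, 2, 13 and 4 with 32 blocks centred and 0, 4 and 4 with 8 grid columns centred. Leaving out 1 replicate gave 0, 0 to 1 and 2 to 9 as deposited and 0, 0 to 4 and 1 to 4 block-centred. With the replicate number as a block the counts were 6, 10 and 18 as deposited and 6, 17 and 6 block-centred; the labels do not say that a number marks a shared culture or day. Deviations from the group means, compared between times for arrays of the same number, correlated at 0.02 to 0.53 as deposited and -0.01 to 0.39 block-centred; 2 of 9 such comparisons as deposited and 3 of 9 block-centred were not over 0.1, so the numbers were not taken as pairs. In 8 and 7 of the 9 comparisons the own number gave the highest correlation, a hint from the data and not the design.

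The 2 genes that passed from 15 to 60 min became 5 with the replicate block, 1 with a platform term or with the replicate block and 32 blocks centred, and 0 with the second platform alone, arrays centred, arrays scaled, array weights, own arrays, values on 2 of 3 arrays allowed, 32 blocks or 8 columns centred, or 1 replicate left out. From 30 to 60 min the replicate block gave 1. The 4 pairs at 60 min became 2 on the second platform alone, with scaled arrays or own arrays, 1 to 4 without 1 replicate, 1 with 32 blocks or 8 columns centred or with the block added, and 0 to 1 block-centred without 1 replicate; the pairs over all 9 arrays became 1 with values on 2 of 3 arrays allowed and with each form of centring, and block-centred without replicate 2 there was 1 pair at 15 min. The median at 15 min was -0.24 on the second platform alone and ran from -0.24 to -0.44 without 1 replicate.

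The sign turned for RPL8B at 60 min, to -0.37 with 32 blocks centred (the same with the replicate block, and -0.69 to -0.18 without 1 replicate; -0.69, -0.25 and -0.18 without replicates 1, 2 and 3) and -0.0265 with 8 columns centred, and for RPL11 A minus B, 60 min, to -0.40 (-0.49, -0.18 and -0.54 without replicates 1, 2 and 3) and -0.0792. Why these results moved was not tested beyond the position values given above.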
